A study of Mus musculus with 6 samples.

Results

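Cytoplasmic ribosomal protein genes encode the proteins of the 80S ribosome that translates nuclear-encoded mRNA. They were taken as probe sets annotated to exactly 1 gene symbol that begins with Rpl or Rps and a number (with at most a letter and a further digit after it), or that is Rplp0, Rplp1, Rplp2 or Rpsa, and Rps14 was left out. This gave 103 probe sets of 48 genes, of 18193 genes with a single-symbol probe set in all. The large (60S) subunit had 26 members and the small (40S) subunit 22, and the brightest probe set by mean over the 6 arrays stands for each gene. The rule reaches only part of the family, because a further 110 probe sets list a ribosomal protein gene together with other genes and so name no member.

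RNA came from LKS+ cells, the lineage-negative marrow fraction with strong c-Kit and with Sca-1 at the surface, which holds blood stem cells and multipotent progenitors. The groups were wild type (WT, 3 arrays) and Apcmin (3 arrays). Apcmin mice have the Min mutation of Apc, which cuts short a scaffold of the complex that degrades beta-catenin. The allele is in the germline, so blood cells are not the only cells that carry it. The labels count at least 20000 sorted cells per mouse, but no label names the animals, and the sources used here give no strain, age or sex. If arrays did not come from separate mice, p-values measure technical spread alone. In such bulk samples fewer cells of a type and less RNA per cell cannot be told apart.

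Each ribosome carries 1 copy of most of these proteins, on a scaffold of ribosomal RNA, so their production is coordinated. Most of their mRNAs share a start rich in C and T, the 5′ terminal oligopyrimidine tract, through which mTOR signalling controls their translation. Too little of single members is known to block ribosome assembly, free Rpl5 and Rpl11 to bind Mdm2 and raise p53, and cause Diamond-Blackfan anemia, a failure of red cell production. Blood progenitors are known to be sensitive to such a loss.

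Start-site sequences were found for 43 of the 48 members in a RefSeq table of the mouse build GRCm38.p6, in 51 windows that run from 250 bases before to 50 after an annotated start. Shown here are 30 bases around the start, 20 before and 10 after, for the members with the widest differences between the genotypes or with arrays that separated, so that the shared start can be seen beside the values. Rps4l and Rpl7, which belong to them too, have no window in the table, and Rps24 has 2. Capitals mark the longest run of at least 5 C or T between 5 bases before and 10 after the start.
Rps10 (chr17:27635235-27635264, minus strand): acgctgcgccgcgcacgCCCCTTCCTTTCC
Rpl35 (chr2:39005122-39005151, minus strand): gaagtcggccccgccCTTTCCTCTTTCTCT
Rps18 (chr17:33955656-33955685, minus strand): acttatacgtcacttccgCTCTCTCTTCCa
Rps24 (chr14:24490658-24490687, plus strand): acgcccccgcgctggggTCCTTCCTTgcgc
Rps24, the other start (chr14:24490733-24490762, plus strand): ccagctccggcgccgtagccatcatggtga
Rps26 (chr10:128626497-128626526, minus strand): agcgggtcgggcaagccgccggaTCCTCTT
Rpl12 (chr2:32961692-32961721, plus strand): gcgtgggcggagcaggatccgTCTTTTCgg
Rpl22l1 (chr3:28805488-28805517, plus strand): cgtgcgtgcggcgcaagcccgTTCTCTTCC
Rps27 (chr3:90213639-90213668, minus strand): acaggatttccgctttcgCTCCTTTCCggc
Rpl6 (chr5:121204481-121204510, plus strand): gatcttggtcacctcccgtcattgcttata
Rpl37 (chr15:5116593-5116622, plus strand): gaagtagtttcctgggcggaagcttatcca
Rps25 (chr9:44407694-44407723, plus strand): tcctttttttccgacatcttagcgaggctg
Rpl41 (chr10:128549159-128549188, minus strand): gacgacacacgggccggctcggaagtgacg

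Rps10, Rpl35, Rps18, Rps26, Rpl12, Rpl22l1 and Rps27 have such a run at the annotated start, as has 1 of the starts of Rps24. Rpl6, Rpl37, Rps25 and Rpl41 have none there. Over all windows of members 22 of 51 (43.1%) held a run, against 26.4% of the 32851 windows in the table, with 46.4% of the large-subunit and 39.1% of the small-subunit windows. The letters CCGGAAG or, on the other strand, CTTCCGG, the core bound by Ets factors such as GABP, lay in 21 of 51 member windows (41.2%) and in 8.86% of all windows. Annotated starts can be off by some bases, so a missing run says nothing about the mRNA.

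Some members also house small nucleolar RNAs, which guide the modification of ribosomal RNA. In the RefSeq table at least 1 such RNA lay inside 15 of 47 matched members (31.9%), compared with 1.70% of 21900 protein-coding genes. Rpl4 held 5, Rpl7a and Rpl13a 4 each and Rpsa 3. This was so although members are short, with a median genomic span of 3551 bases against 17150 for protein-coding genes.

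Markers of the labelled cell type were bright, with Kit at 9.79 ± 0.18 (SD, n = 3, log2 intensity) in WT and 9.87 ± 0.18 in Apcmin. Cd34 was at 10.94 ± 0.05 and 10.94 ± 0.11, and the gene of Sca-1 was not on the marker list. All 7 LKS+ markers measured had means over the arrays of at least 6, with Slamf1 the dimmest at 6.13 ± 0.21 and 5.91 ± 0.23. Of markers of other cells, 5 of 5 T cell, 2 of 3 B cell, 4 of 5 monocyte, 1 of 4 megakaryocyte and 2 of 4 endothelial genes had means under 6. Those above included Cd79b of B cells at 8.06 ± 0.09 and 7.92 ± 0.25, Csf1r of monocytes at 8.42 ± 0.40 and 8.24 ± 0.30 and Pf4 of megakaryocytes at 8.16 ± 0.65 and 7.80 ± 0.60. All 7 granulocyte markers measured had means of at least 6, so markers alone do not settle the cell type. Mpo, of granulocyte progenitors, was at 12.16 ± 0.06 and 12.18 ± 0.08, and S100a9 at 12.03 ± 0.35 and 11.96 ± 0.10. Camp was at 9.66 ± 0.57 and 9.52 ± 0.26, and Ltf, the dimmest of the 7, at 7.16 ± 1.08 and 7.29 ± 0.06. Of 6 erythroid markers 3 had means under 6, and erythroid transcripts varied from array to array, with Klf1 between 7.06 and 9.25. The median log2 intensity per array lay between 4.12 and 4.18. WT replicate 2 stood apart for the ribosomal protein genes, so some results are given with and without it. It was singled out by the members' own values, and leaving out a WT array that is lowest for a gene lowers that gene's difference. The array weights of limma over all probe sets, larger for less spread, were 0.64, 1.35 and 0.56 on the WT arrays. On the Apcmin arrays they lay between 1.19 and 1.42. Intensity has no unit of molecules, and levels of different probe sets are not compared.

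No ribosomal protein gene passed the test between Apcmin and WT. In limma 0 of the 48 members had an adjusted p under 0.05, where the share over all 45037 probe sets was 0%, and the smallest adjusted p of a member was 0.954. At an unadjusted p under 0.05 there were 0 members, against 3.11% of all genes. The differences were small: 38 of 48 members differed by less than 0.1 on the log2 scale. For 40 of the 43 members whose log2 intensity averaged at least 6, the 95% confidence interval lay within a 1.5-fold change either way, and for all 43 within a 2-fold change. The deposited values were already normalized, and at a mean of at least 12 there were 30 members and 27 other genes. Normalization can reduce a shift that most of the brightest genes share, so small differences do not show equal amounts of mRNA. Such a reduction was not tested.

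**Figure D1:**
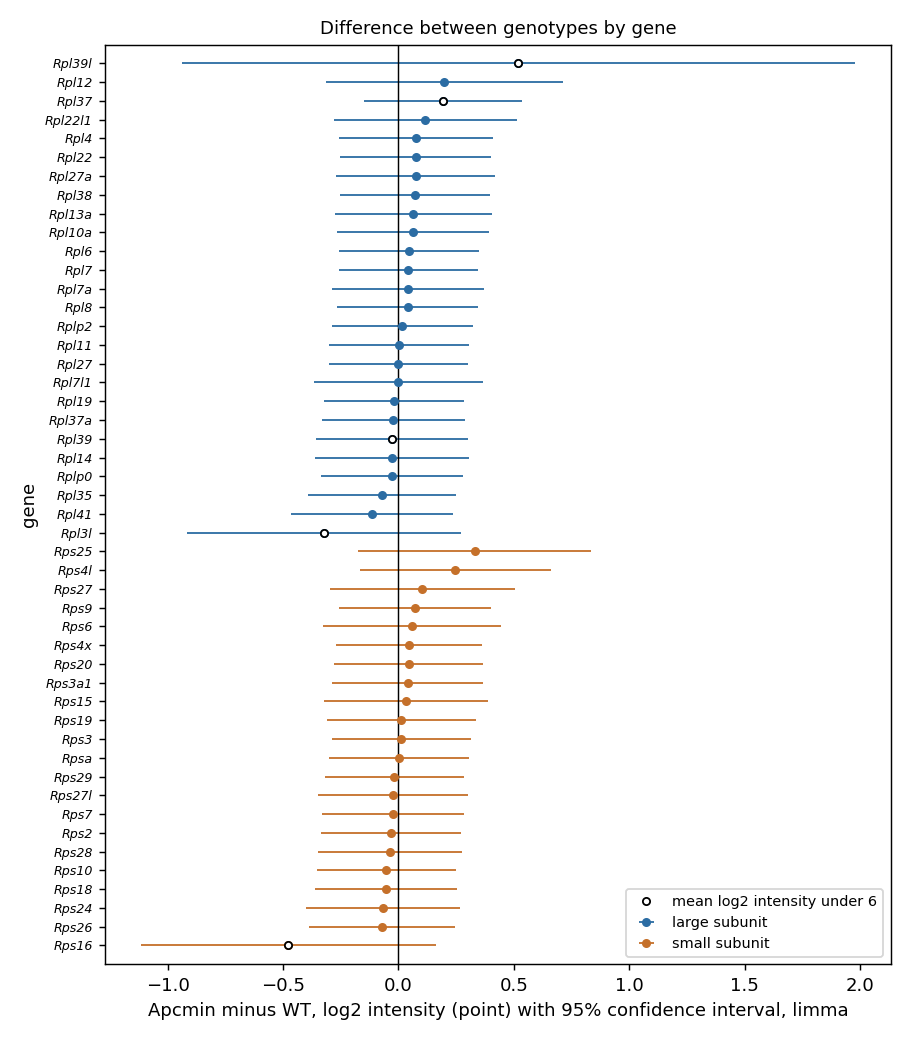
Difference between Apcmin and WT for each of the 48 ribosomal protein genes, in log2 intensity, with its 95% confidence interval from limma (3 arrays a genotype). Blue marks the large and orange the small subunit, and open points have a mean log2 intensity under 6; every interval crosses 0, and the 5 open points include the widest intervals.

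By direction, 28 members were higher by mean in Apcmin and 20 lower, and the median difference was 0.015. Of all 18193 genes 43% were higher by mean in Apcmin, and the median was -0.036. Of bright genes more were higher: 60.3% of the 1138 other genes with a mean of at least 10 were higher, with a median of 0.019. The members at that level had 21 of 36 higher (58.3%) and a median of 0.013, which is near the share in those genes. At a mean of at least 12 the shares were less alike. There 18 of 30 members were higher (60%, median 0.013) and 11 of 27 other genes (40.7%, median -0.0073). Without WT replicate 2 the count of members with a higher mean was 17 of 48 and the median -0.0093, so the direction of the family turned on that array.

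Among large-subunit genes 16 of 26 were higher by mean in Apcmin, with a median of 0.041 and, among the 22 bright ones, a range from -0.11 to 0.20. Rpl12, which holds the base of the stalk that recruits translation factors, gave log2 intensities of 8.39, 7.61 and 8.09 on the WT arrays and 8.24, 8.27 and 8.18 on the Apcmin arrays. The Apcmin values lay close together within the wide WT range, and WT replicate 2 was lowest. The difference of 0.20 (SE 0.22, limma, adjusted p = 0.954) became -0.011 without that array. The other measured stalk proteins were steady: Rplp0, the stalk's scaffold, had means of 12.33 ± 0.02 in WT and 12.30 ± 0.05 in Apcmin, and Rplp2, one of the proteins it carries, of 13.13 ± 0.05 and 13.15 ± 0.01. Rpl11, of the 5S particle that binds Mdm2, was at 12.41 ± 0.04 and 12.41 ± 0.01, a difference of 0.0024 with an interval from -0.30 to 0.31.

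Rpl41, the shortest ribosomal protein, which sits between the subunits, had the largest negative difference among bright members. Its values were 13.33, 13.34 and 13.07 in WT and 13.04, 13.19 and 13.17 in Apcmin, so WT replicate 3 lay among the Apcmin arrays. The difference was -0.11 (SE 0.15). Rpl35, near the tunnel by which the new chain leaves, differed by -0.071, and its highest array was WT replicate 2, as for Rpl41. Rpl4, which reaches into that tunnel, was the other way round: 12.67, 12.44 and 12.66 in WT and 12.71, 12.64 and 12.64 in Apcmin, lowest on WT replicate 2. Rpl27, whose loss can cause Diamond-Blackfan anemia, was the steadiest member, with an SD over the 6 arrays of 0.0092.

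Small-subunit genes had 12 higher and 10 lower means in Apcmin, with a median of 0.0074. Rps25, a protein of the head of the subunit, had the largest difference of any bright member. It gave 8.20, 8.60 and 8.81 in WT and 9.06, 8.61 and 8.93 in Apcmin. Apcmin replicate 2 overlapped the WT arrays, and the difference of 0.33 (SE 0.21, a 1.26-fold ratio) did not pass (limma, adjusted p = 0.954). Rps6, the substrate of S6 kinase downstream of mTOR, was at 9.93 ± 0.16 in WT and 9.99 ± 0.16 in Apcmin. Rps3, at the channel by which mRNA enters, was at 12.63 ± 0.02 and 12.64 ± 0.02 and was among the 3 steadiest members, as was Rps29 with an SD over the arrays of 0.015. Rps18, another protein of the head, differed by -0.054.

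In 3 members all Apcmin values lay above all WT values and in 1 all lay below, against 2.97% and 4.76% of all genes. All 3 that were higher were large-subunit genes. Rpl6 was at 12.46, 12.44 and 12.48 in WT and 12.51, 12.50 and 12.51 in Apcmin, and Rpl7 at 12.25, 12.20 and 12.26 and at 12.28, 12.29 and 12.28. Both separated by small differences, 0.046 and 0.043 on the log2 scale, with the Apcmin arrays close together. Rpl7 did so on its brightest probe set alone. The next, with a mean of 12.16, overlapped and differed by 0.020, and the dimmest differed by -0.062. Rpl37 separated near the bottom of the intensity range, with 3.06, 2.83 and 3.04 in WT and 3.09, 3.26 and 3.16 in Apcmin. Rps10, a Diamond-Blackfan gene, was the member that was lower, at 12.34, 12.31 and 12.31 in WT and 12.27, 12.30 and 12.23 in Apcmin. Of the 6 probe sets of Rps10, 4 had that sign. The next brightest overlapped, with a difference of -0.057, while one with a mean of 11.93 separated too. Counted either way on the brightest probe sets, 4 of 48 members separated and 7.73% of all genes. When each array was centred on its median, 1 of the 48 separated and 7.46% of all genes. With an array left out fewer values have to separate, and the share of all genes went up too. Without WT replicate 3 it was 17 members and 32.8% of all genes, and without WT replicate 2 it was 8 members and 15.1%. Without WT replicate 1 it was 7 members and 13.8%, and without Apcmin replicate 2 it was 7 members and 17.2%.

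Of 17 Diamond-Blackfan genes on the list 10 were members here, with 3 higher, 7 lower and a median of -0.021, beside a median of -0.036 over all genes. All 10 had a mean of at least 6, and of the 8658 genes at that level 56.3% were higher, with a median of 0.023. Rps19, the gene most often mutated in that anemia, was at 12.23, 12.04 and 12.21 in WT and 12.14, 12.22 and 12.15 in Apcmin, and its groups overlapped. Rps26, near the channel by which mRNA leaves, was at 11.84 ± 0.09 and 11.77 ± 0.01, a difference of -0.070. Rps24 was at 12.44 ± 0.13 and 12.37 ± 0.05, and Rps27 at 6.76 ± 0.17 and 6.87 ± 0.18. Rps7 differed by -0.025 and Rps28 by -0.036. None passed the threshold.

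Copies that arose from ribosomal protein genes gave no common direction, with 3 of 6 higher. Rpl22l1, which can take the place of Rpl22 in the ribosome, was at 11.33, 10.99 and 11.44 in WT and 11.46, 11.31 and 11.35 in Apcmin. The groups overlapped, with Apcmin replicate 1 just above the highest WT array, and the difference of 0.12 became -0.015 without WT replicate 2. On its brightest probe set Rpl22 was lowest on the same array and differed by 0.075. Its other probe sets differed by -0.036 and -0.087 and were lowest on Apcmin replicates 1 and 3. Rps27l, a copy of Rps27 that p53 can induce, was at 11.06 ± 0.10 and 11.04 ± 0.06. Rps4l, a copy of Rps4x, was at 6.63, 6.61 and 6.50 in WT and 6.53, 6.91 and 7.04 in Apcmin, with Apcmin replicate 1 inside the WT range, while Rps4x itself differed by 0.046. Rpl7l1, a relative of Rpl7, differed by -0.00092.

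Of the 5 members with a mean under 6, Rpl39l, Rps16 and Rpl3l had the largest SDs of all members over the 6 arrays. Rpl39 and Rpl37 had SDs of 0.084 and 0.145, above the median of 0.075 for bright members. Rpl39l, a copy of Rpl39 known from testis, was between 2.17 and 2.68 on 5 arrays and at 4.57 on Apcmin replicate 3, which alone set its difference of 0.52. Rpl3l, the form of Rpl3 in striated muscle, was at 3.06, 2.65 and 2.11 in WT and 2.36, 2.33 and 2.16 in Apcmin. Rps16 was at 2.02 ± 0.45 in WT and 1.55 ± 0.29 in Apcmin. Rpl39 was at 5.25 ± 0.11 and 5.23 ± 0.08. The deposited values carry no detection call, so at this level background cannot be told from transcript. For Rps16, Rpl37 and Rpl39, core proteins of the ribosome, these were the only probe sets with a single symbol.

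Several probe sets of a gene rarely gave the same sign. Of 23 members with more than 1, all probe sets had the sign of the brightest in 6. Among the 85 member probe sets with a mean of at least 6, 46 were higher and 39 lower in Apcmin. Rps24 had 6 probe sets, with differences from -0.46 to 0.40, and its 4 brightest stayed between -0.07 and 0.02. Rps18 had 6, of which the 2 brightest differed by -0.05 and -0.02. The next, also bright with a mean of 12.11, went the other way by 0.15, and the dim ones differed by up to 0.54. Rpl35 was a case of agreement, with 6 of 6 lower, from -0.46 at a mean of 5.99 to -0.014. No member probe set had an unadjusted p under 0.05 in limma.

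**Figure D2:**
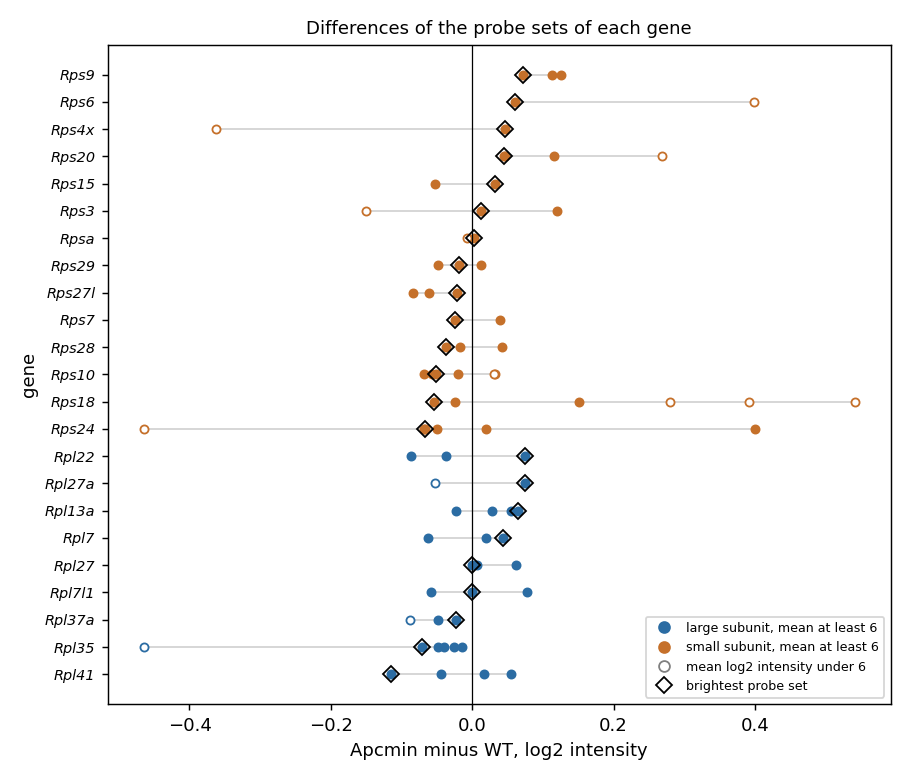
Differences between Apcmin and WT, in log2 intensity, for every probe set of the 23 members with more than 1, blue for large and orange for small subunit, open where the mean is under 6, with a diamond around the brightest. The brightest probe sets lie between -0.11 and 0.07, and the points farthest from 0 are mostly dim, apart from a probe set of Rps24 at 0.40.

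Near-identical copies make some values uncertain. Of the probe sets that stand for members, 12 have identifiers ending in _x_at and 2 in _s_at, which mark probes that can bind several transcripts. Without these endings 44 members could be measured, 29 of them higher, with a median of 0.040 and 0 past the threshold. The 110 probe sets shared with other genes, which are not members, had 52 higher and 58 lower means in Apcmin and a median of -0.0017, with 0 at an unadjusted p under 0.05.

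Arrays of 1 genotype differed as well. WT replicate 2 was the lowest of the 6 arrays for 23 of 48 members (47.9%), 15 of the large and 8 of the small subunit. The same array was lowest for 33.4% of the other genes with a mean of at least 10 and for 14.7% of all genes. The members' median deviation from their means over the arrays was -0.069 on WT replicate 2 and between -0.0030 and 0.021 on the other arrays. The shift was uneven. Rpl12 lay 0.52 below its mean on that array, Rpl22l1 0.32, Rpl27a and Rpl13a 0.20 each and Rpl4 0.19, while Rpl41 lay 0.15 above its mean, Rpl35 0.12 and Rps28 0.083. Of the 110 shared probe sets 50 were lowest there too, and of 76 mitochondrial ribosomal protein genes, which serve the organelle's own ribosome, 9 were.

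**Figure D3:**
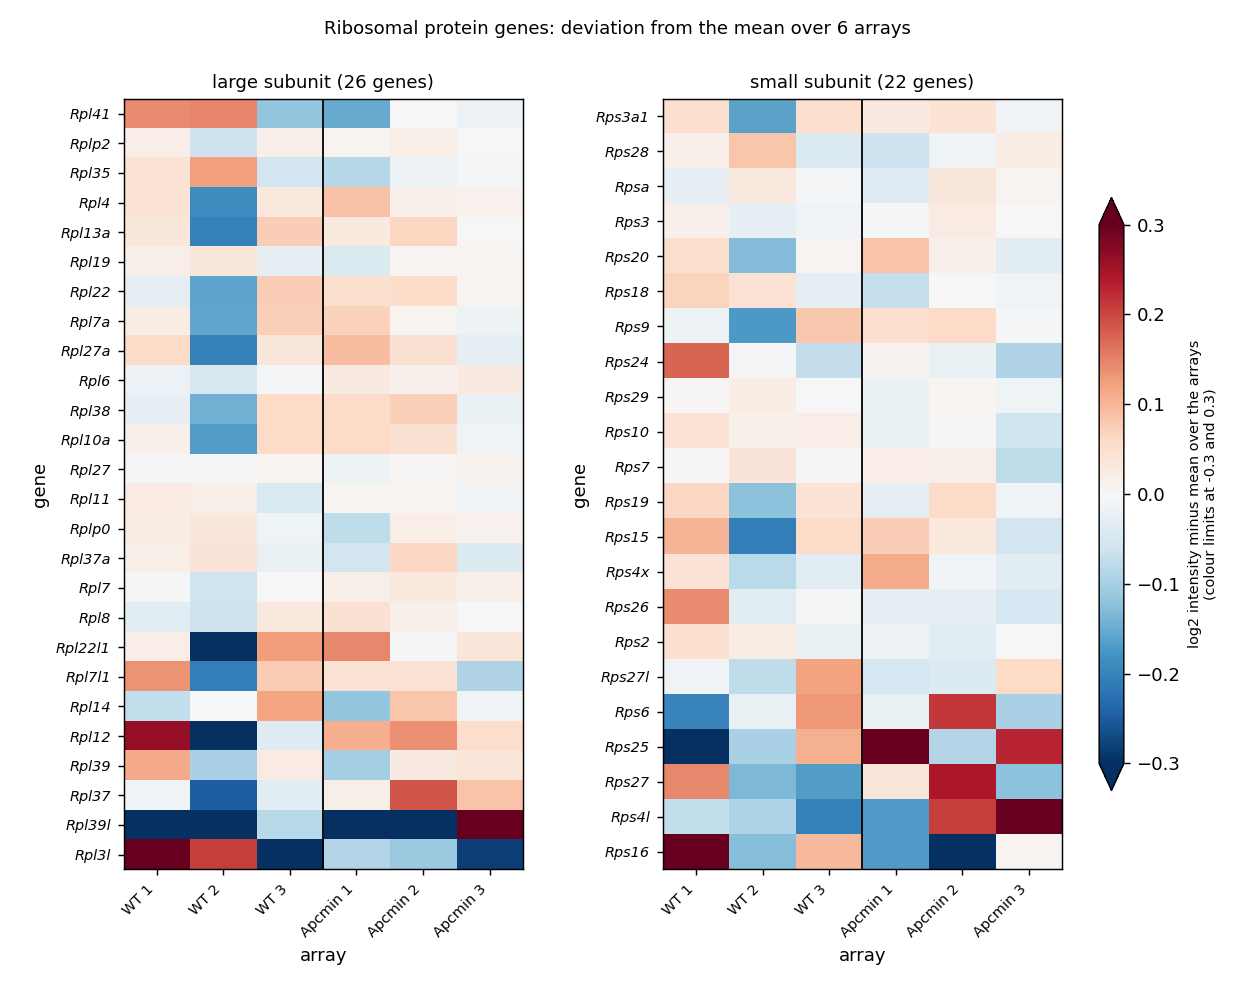
Deviation of each ribosomal protein gene from its mean over the 6 arrays, in log2 intensity, for 26 large-subunit (left) and 22 small-subunit genes (right), ordered by mean intensity; red is above and blue below the mean. WT replicate 2 is blue for many genes, among them Rpl4, Rpl13a, Rpl27a and Rps15, and red for Rpl41, Rpl35 and Rps28, and Rpl39l, Rpl3l and Rps16 at the bottom vary most.

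Other measurements moved with WT replicate 2. The middle probe set of 18S ribosomal RNA was at 12.32, 11.62 and 12.07 on the WT arrays and at 12.10, 12.04 and 11.81 on the Apcmin arrays, lowest on the same array and highest on WT replicate 1. The 5′ probe set was lowest there too, at 7.79, while the 3′ probe set was lowest on Apcmin replicate 3, at 6.58. Of the 7 granulocyte markers measured, the median deviation was 0.38 on WT replicate 2, -0.32 on WT replicate 1 and between -0.054 and 0.10 elsewhere. Their summed intensity ran from 13343 to 16407 in WT, highest on WT replicate 2, and from 14023 to 14690 in Apcmin, with none at 0. Markers of other cells were also raised on WT replicate 2, with a median deviation of 0.38 for megakaryocyte, 0.37 for T cell, 0.37 for B cell, 0.20 for monocyte and 0.18 for endothelial genes. The monocyte list was higher on WT replicate 1, at 0.42, and for the other 4 lists no array was higher. The B cell list was at 0.35 on WT replicate 1, and the median over all genes was 0.047 there and 0.045 on WT replicate 2. Of these markers 5 of 5 T cell, 2 of 3 B cell and 4 of 5 monocyte genes had means under 6. So had 1 of 4 megakaryocyte and 2 of 4 endothelial genes. At that level background cannot be told from transcript. The 6 erythroid markers measured, 3 of them with a mean under 6, summed to between 1396 and 2966 in WT and between 1472 and 3391 in Apcmin, lowest on WT replicate 3. The 3′ to 5′ differences of the control probe sets did not single that array out: for Gapdh they lay between 0.86 and 0.98 and for Actb between 0.70 and 0.91, lowest on WT replicate 3 for both. The part of any of these in the members' values was not tested.

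Sequence features of the members were set beside the WT replicate 2 values after those values were seen. Of the 15 genes that house a small nucleolar RNA 11 were lowest on that array, with a median deviation of -0.13, compared with 12 of 32 and -0.027 for the others. By genotype 12 of the 15 and 15 of the 32 had a higher mean in Apcmin. Of members with a pyrimidine run 9 of 21 were lowest on WT replicate 2, and of those without one 11 of 22. For the CCGGAAG core the counts were 7 of 21 with it and 13 of 22 without it. None of these splits was tested.

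Large- and small-subunit genes differed little in their array pattern. The median deviation of the large-subunit genes was 0.020, -0.080 and 0.011 on the WT arrays and 0.018, 0.019 and 0.0020 on the Apcmin arrays. That of the small-subunit genes was 0.044, -0.055 and -0.0010 in WT and -0.018, 0.011 and -0.011 in Apcmin. Both subunits were lowest on WT replicate 2. The large minus small value was -0.024, -0.025 and 0.012 on the WT arrays, with a mean of -0.012 ± 0.021 (SD, n = 3), and 0.036, 0.0084 and 0.013 on the Apcmin arrays, with a mean of 0.019 ± 0.015. WT replicate 3 lay within the Apcmin range, so the groups overlapped, and the difference of 0.031 is smaller than the distance between the lowest and highest WT arrays.

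**Figure D4:**
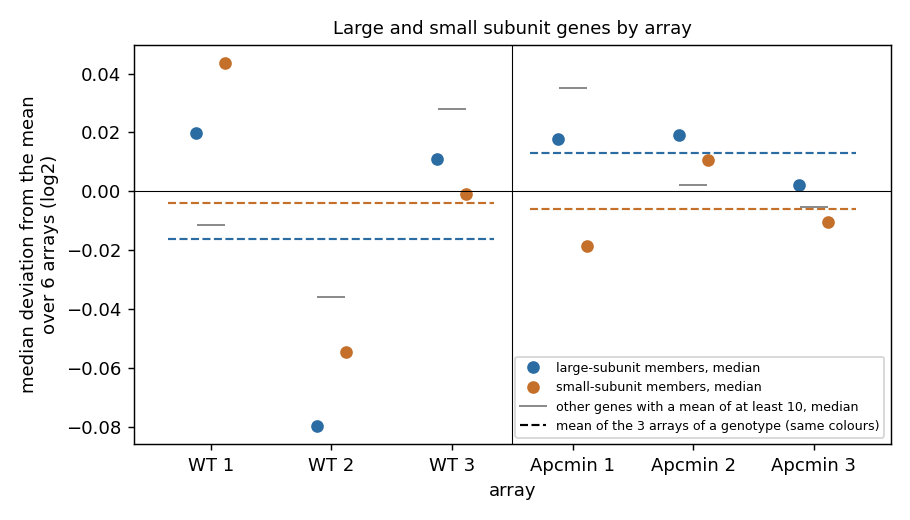
Median deviation from the mean over the 6 arrays, in log2 intensity, for large-subunit (blue) and small-subunit genes (orange) on each array, with dashed lines at the mean of the 3 arrays of a genotype and grey bars for 1138 other genes with a mean of at least 10. Both subunits are lowest on WT replicate 2, at -0.080 and -0.055, and the genotype means differ by less than the spread of the WT arrays.

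Bright members varied little between arrays. The median SD over the 6 arrays was 0.062 for the 30 members with a mean of at least 12 and 0.077 for the 27 other genes at that level.

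Other genes of the translation machinery also gave no call in limma, with 0 in each list past the adjusted threshold. Fau, which encodes the ribosomal protein S30 fused to a ubiquitin-like part, was at 12.17 ± 0.03 in WT and 12.16 ± 0.04 in Apcmin. Of 14 elongation factors and other mRNAs with a pyrimidine start, 13 were higher by mean in Apcmin, with a median of 0.031 and differences from -0.017 to 0.14. All 14 had a mean of at least 10, where 60.3% of the 1138 genes outside the members were higher. Eif4b, an initiation factor, differed by 0.14 (SE 0.15), and Npm1, a nucleolar chaperone, was at 11.78 ± 0.25 and 11.88 ± 0.14. Of the 14, 7 were lowest on WT replicate 2, as were 23 of the 48 members. Another 5 were lowest on WT replicate 1, where only 2 members were. Initiation factors had 14 of 20 higher, with a median of 0.025, and Eif3m and Eif3a, of the factor that prepares the small subunit, differed by 0.16 and 0.14.

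Genes that build ribosomes had 29 of 42 higher means in Apcmin, a median of 0.077 and differences from -0.38 to 0.51. The Apcmin arrays disagreed: the median deviation was 0.16 on Apcmin replicate 3, the highest array for 21 of 42 genes, and 0.058 on Apcmin replicate 1. It was -0.076 on Apcmin replicate 2, below the WT arrays at -0.012, -0.0083 and -0.046. Rrp12, needed for the export of both subunits, was at 6.41, 6.57 and 6.85 in WT and 7.02, 6.72 and 7.50 in Apcmin, and the groups overlapped. Surf6, a nucleolar protein, was at 8.90, 8.56 and 8.84 in WT and 8.45, 8.49 and 8.37 in Apcmin, all Apcmin values below all WT values, with a difference of -0.33 (limma, adjusted p = 0.954). Mitochondrial ribosomal protein genes had 42 of 76 higher and a median of 0.0083. Genes of the p53 response to ribosomal stress had 4 of 8 higher, with Ccng1, a p53 target, at 9.55 ± 0.07 and 9.66 ± 0.13 and Phlda3, another target, at 4.31 ± 0.06 and 4.56 ± 0.44. Among 14 regulators of ribosome supply around Myc and mTOR, 9 were higher, and 1, Tsc1, had an unadjusted p under 0.05 in limma (0.0341). Tsc1, an inhibitor of mTOR, differed by -0.44 and Rictor, of mTOR complex 2, by 0.45, and neither passed after adjustment.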

How the data were processed

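The members, the gene lists and the tests were chosen with earlier results of these data known. Per the submitters' processing notes the tool was RMA, with no version. The intensity values the authors deposited, 1 for each array and probe set, are linear. All intensities were positive (1.31 to 11375), so log2 was taken with no pseudocount. Of 45101 probe sets 64 controls were left out. Of the other 45037, 34945 had 1 symbol, 932 several and 9160 none, and 34741 of those with 1 symbol matched RefSeq (GRCm38.p6) by Entrez identifier, with 0 symbols changed.

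Genotype was the only term in limma 3.58.1 (R 4.3.3), fitted to all 45037 probe sets with Benjamini-Hochberg adjustment at 0.05. Differences are Apcmin minus WT. The fit was tested on simulated data. Lists are described by counts and medians, without a test. Named members were the 5 largest differences each way with a mean of at least 6, members whose groups did not overlap, fixed sets (stalk, 5S particle, Diamond-Blackfan, copies), the 3 with the largest and smallest SD and the 3 with the widest probe set range. Of each translation list the 2 genes with the smallest p were named. Further members were chosen for their role or their array pattern after their values were seen. The number of arrays limits the precision. Alternatives changed the probe set, filter, normalization, floor, spread model, weights, block and arrays.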

Additional observations from a re-analysis of the deposited data

How the results depend on the processing

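No member passed the adjusted threshold under any of the alternatives run, where the smallest adjusted p of a member was 0.343 (without WT replicate 3). With each array left out in turn, members higher in Apcmin ranged from 17 to 32, the median large-subunit difference from -0.0087 to 0.055, and members with separated groups from 5 to 17, with the lowest values of the first pair without WT replicate 2. The median of all members ranged from -0.0093 to 0.037. The large minus small difference stayed between 0.023 and 0.044 there, but was 0.0053 with probe sets ending in neither _x_at nor _s_at. Centring each array on its median left 1 member with separated groups. Without WT replicate 2 the differences of 11 members changed sign, all from higher to lower, and with any other array left out those of 4 to 6 did. Of the 13 bright members chosen for the size of their difference or for separated groups, the sign changed for Rpl12 (-0.011 to 0.38 with an array left out), Rpl22l1 (-0.015 to 0.21) and Rps24 (-0.12 to 0.0046), and, with probe sets ending in neither _x_at nor _s_at, for Rpl41 (0.055) and Rps24 (0.40). With the mean of all its probe sets Rps18 was at 0.21. The cause was not tested. Replicate numbers gave no sign of pairing. Deviations of arrays with the same number correlated at -0.047, -0.073 and -0.23 over all probe sets. WT replicate 3 correlated better with Apcmin replicate 1 (0.12) than with its own number. Deviations from the mean of 3 arrays sum to 0 within each genotype, so this check cannot exclude pairing. With the replicate block 28 members were higher, the median was 0.015 and 0 passed. With array weights 30 were higher, the median was 0.049 and 0 passed.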
